A study of Mus musculus with 2 samples.

Results

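The mRNA levels of 55 genes that carry cells from G1 into S phase and copy their DNA were examined in the stomach of mouse embryos. The genes were chosen by name and role, with no threshold on their measured values, and were matched by gene identifier in a table of 43346 Ensembl genes, of which 21474 are protein coding. They comprise the MCM helicase, the origin recognition complex, loading and firing factors, the sliding clamp and its loader, the replicative DNA polymerases, nucleotide supply enzymes, lagging strand and single-strand binding proteins, and the cyclins, kinases and E2F factors of the G1 to S transition. The data were 2 total RNA-seq libraries of 1 group: whole stomachs of strain B6NCrl embryos at 14.5 days of gestation (E14.5), with no treatment or second condition. Per the labels, each library was made from a single stomach of 1 pup, on a different collection day, from 10 ng of RNA longer than 200 nt extracted with a mirVana kit, and the linked protocol is one for Smart-seq. The labels also give the sex as male and female pooled, although each library is said to come from a single animal. With 1 group there was no contrast between conditions, so levels, their balance and the spread between the 2 embryos are described, and no p-value was computed.

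A cell that commits to divide passes from G1 into S phase when D-type cyclins with Cdk4 or Cdk6, and then E-type cyclins with Cdk2, phosphorylate the pocket proteins that hold E2F transcription factors in check. E2F factors then raise transcription of many replication genes. Before S phase, the origin recognition complex, Cdc6 and Cdt1 load rings of MCM helicase onto DNA, and in S phase Cdc45 and GINS join each ring to form the active helicase that the polymerases follow. The embryonic stomach at this age is a growing tube of epithelium and mesenchyme, in which dividing cells of both layers contribute RNA to a whole-organ library. In such bulk samples, fewer cells of a type and less RNA per cell cannot be told apart, so a level below describes the organ and not a cell.

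The libraries held 25072242 and 25599910 expected counts, of which 23668322 and 23882647 fell on genes. Spike-in and control sequences took 5.60% and 6.71% of the counts. All 12 stomach markers on the list used were detected, led by Cym at 2152 and 1927 TPM (transcripts scaled to length and to a fixed total per library) in replicates 1 and 2. Markers of pancreas moved with the library: the summed level of the 11 genes was 382 TPM in replicate 1 and 9.07 TPM in replicate 2, with Ptf1a and Prss2 at 0 counts in replicate 2. The other lists were close in both libraries, with sums of 33.2 and 31.1 TPM for erythroid, 81.9 and 78.3 TPM for liver, 13.1 and 10.3 TPM for intestine and 106 and 98.98 TPM for macrophage genes.

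All 55 genes reached TPM 1 in both libraries, the level taken as detection, beside 61.8% of all protein-coding genes. TPM 10 or more in both libraries was reached by 52 of the 55, beside 40.1% of protein-coding genes, and the exceptions were Orc1, E2f1 and E2f2. Their median level was 70.9 TPM in replicate 1 and 73.2 TPM in replicate 2, against 18.9 and 17.8 TPM for the 13271 detected protein-coding genes. By mean TPM, the median member stood at the 85.0th percentile of those detected genes, 11 members were in the top 10%, and 5 (Orc1, Gins3, Pola1, E2f1 and E2f2) were under the median. Together they made up 0.623% of the summed TPM of genes in replicate 1 and 0.625% in replicate 2. Their expected counts ran from 217 to 24507.

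**Figure D1:**
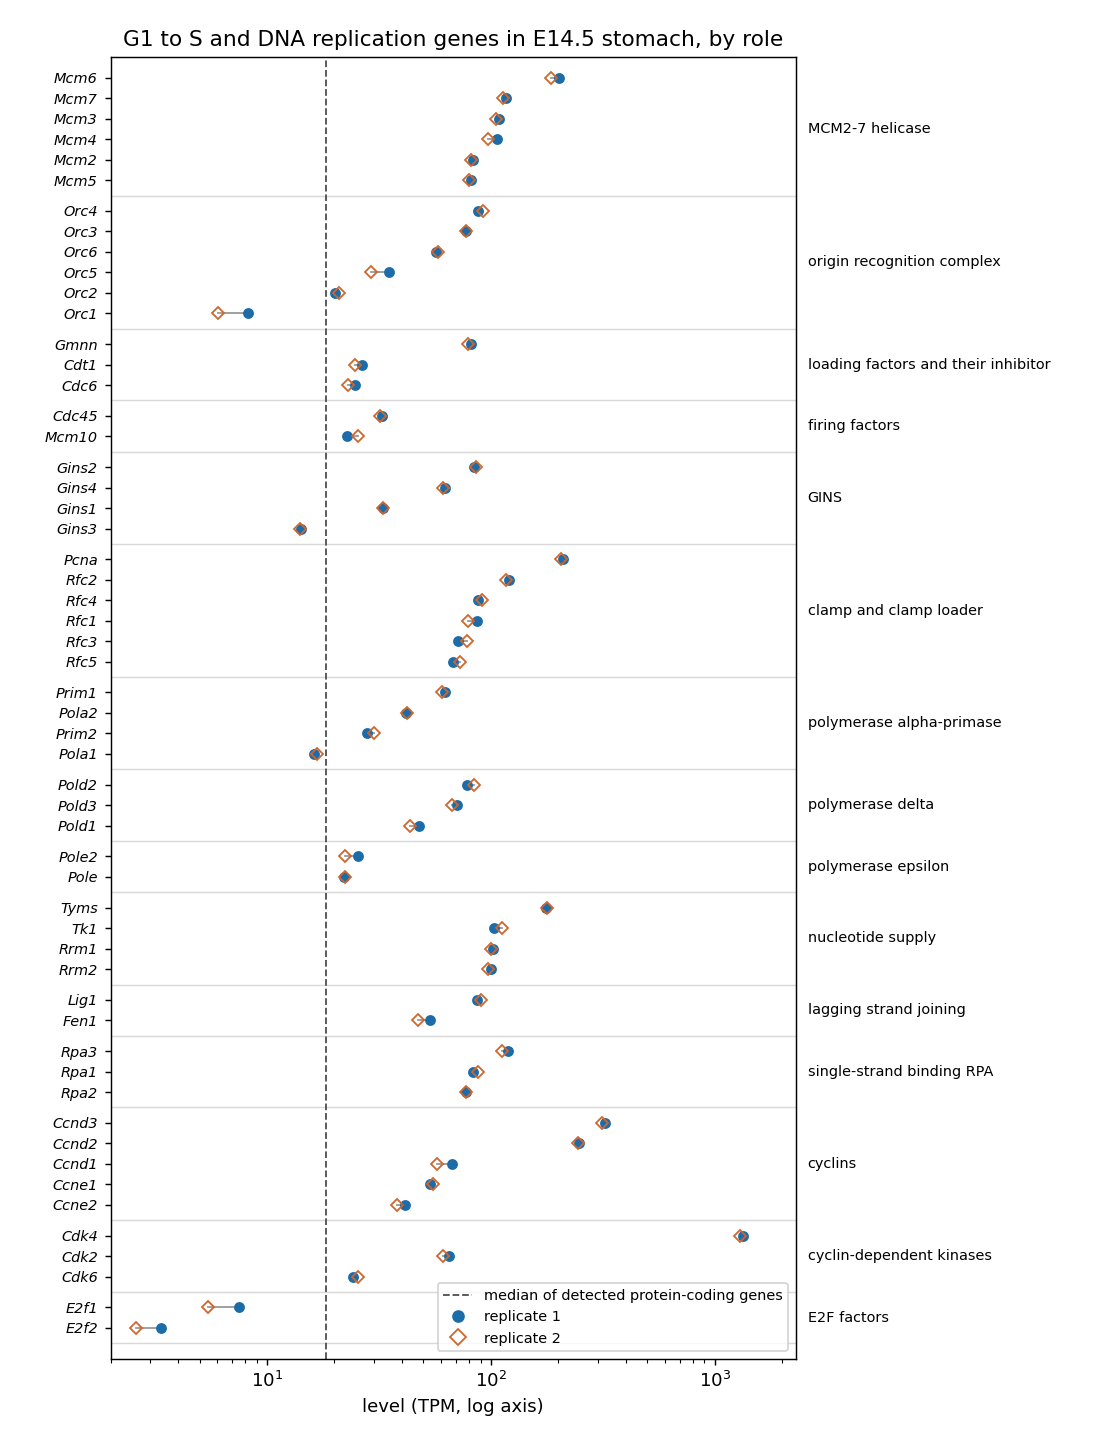
Level of each of the 55 genes in TPM (log axis), grouped by role, with replicate 1 as filled circles and replicate 2 as open diamonds. The dashed line is the median of detected protein-coding genes, and 50 members lie above it. Cdk4 stands highest, and E2f2 lowest.

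Promoter letters were searched as a feature that the choice by name did not use directly. Since E2F factors raise transcription of many replication genes, the choice by role is not independent of E2F letters. The shares below are therefore a description only. In RefSeq promoters of build GRCm38.p6 (the assembly also called mm10), taken from 250 bases before to 50 after a gene's start, 44 members had an entry. The textbook E2F letters TTTGGCGC or TTTCCCGC, searched on both strands, were present in 15 of the 44 (34.1%), against 486 of 27025 genes in the table (1.80%). The 15 were Mcm3, Mcm5, Mcm6, Mcm7, Orc3, Cdc6, Cdt1, Gins3, Rfc3, Pola1, Pold1, Pold3, Pole2, Cdk2 and E2f2. The letters CCAAT, on either strand and not contained in the other motifs, were present in 26 of 44 members (59.1%) and in 41.1% of genes. A match is a description of the letters and not of binding, which was not measured. In 8 members the E2F letters lay before the RefSeq start, and 5 stretches in 4 of these members lay outside every annotated exon. These are shown because they give the letters in their setting, read 5′ to 3′ on the gene's strand, with the matched letters in capitals. The first Mcm6 stretch (chr1:128359788-128359835, minus strand) begins its match 110 bases before the start and the second (chr1:128359725-128359772) 47 bases before it. Starts are those of RefSeq, which can differ from the gene bounds used for the levels: the Cdc6 stretch lies within the annotated bounds of that gene (chr11:98907801-98923940), outside its exons. The matches begin 149 bases before the start of Mcm5 (chr8:75109340-75109387, plus strand), 138 before that of Cdc6 (chr11:98907993-98908040, plus strand) and 138 before that of Pola1 (chrX:93632266-93632313, minus strand).
Mcm6, distal: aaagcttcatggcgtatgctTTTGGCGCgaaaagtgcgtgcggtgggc
Mcm6, proximal: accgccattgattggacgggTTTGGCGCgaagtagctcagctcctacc
Mcm5: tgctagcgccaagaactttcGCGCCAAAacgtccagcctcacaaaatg
Cdc6: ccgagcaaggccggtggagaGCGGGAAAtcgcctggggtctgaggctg
Pola1: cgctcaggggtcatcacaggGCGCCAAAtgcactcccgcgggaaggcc
Both Mcm6 stretches carry TTTGGCGC as written, Mcm5 and Pola1 carry its reverse complement GCGCCAAA, and Cdc6 carries GCGGGAAA, the reverse complement of TTTCCCGC. The 5 stretches belong to genes whose levels ran from 16.5 TPM (Pola1) to 193 TPM (Mcm6).

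The helicase genes were abundant and close to each other, apart from Mcm6. Mcm6 (chr1:128331590-128359664, mm10) was at 201 TPM in replicate 1 and 186 TPM in replicate 2. Mcm7 was at 117 and 113 TPM, Mcm3 at 108 and 105 TPM, and Mcm4 at 106 and 97.0 TPM. These 3 subunits formed a middle group, in which Mcm3 and Mcm4 overlapped between libraries. Mcm2 was at 83.4 and 81.3 TPM and Mcm5 at 81.2 and 80.3 TPM, the lowest of the ring. Since the loaded helicase is a ring with each of the 6 proteins once, the balance of their mRNAs was taken as highest over lowest subunit, which was 2.40 from the mean TPM (2.48 in replicate 1 and 2.32 in replicate 2). Mcm6 alone held 28.8% and 28.1% of the summed TPM of the ring, and the others between 11.6% and 17.0%.

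The origin recognition complex had the widest balance of the 9 complexes by gene TPM. This complex marks origins and, with Cdc6 and Cdt1, loads the helicase. Orc1 (chr4:108579423-108614833), an ATPase subunit, was at 8.20 TPM in replicate 1 and 6.04 TPM in replicate 2. Orc4 was highest, at 87.7 and 92.5 TPM, followed by Orc3 at 77.7 and 77.6 TPM and Orc6 at 57.1 and 58.0 TPM. By gene TPM, these 3 formed the upper part of the complex in both libraries, and the other subunits were lower. Orc5 was at 34.9 and 29.1 TPM and Orc2 at 20.1 and 21.1 TPM. Every neighbouring pair in this order was separated, in that both libraries of the higher gene lay above both of the lower. Highest over lowest was 12.7 from the means, 10.7 in replicate 1 and 15.3 in replicate 2, and Orc1 made up 2.87% and 2.13% of the sum. When only protein-coding transcripts were summed, Orc1 was still the lowest subunit, at 5.53 TPM, and highest over lowest was 10.4, below the 12.6 of the RFC complex on that scale. From protein-coding transcripts Orc6, at 57.6 TPM, was the highest in place of Orc4. Orc4 had 67.6% of its TPM and 47.7% of its counts (means) on transcripts annotated as processed transcripts, and Orc3 43.1% of its TPM. By expected counts per kilobase of the longest protein-coding transcript, Orc4 (529) lay under Orc5 (539). Highest over lowest was 10.7 on that scale, against 2.98 for RFC.

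Of the loading factors, the inhibitor was the more abundant. Geminin (Gmnn), which binds Cdt1 and blocks reloading of origins, was at 81.9 and 79.0 TPM. Cdt1 was at 26.7 and 24.7 TPM, and Cdc6, an ATPase that works with it, at 24.7 and 23.0 TPM. Cdt1 over Gmnn was 0.319 ± 0.010 (SD, n = 2), so the inhibitor's mRNA was 3.14 times that of its target. Mcm10, a firing factor, was at 22.9 and 25.4 TPM, and Cdc45, which joins the ring to make it active, at 32.8 and 32.1 TPM. Each of these except Gmnn lay below every MCM gene in both libraries.

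GINS, the 4-protein complex that joins the ring with Cdc45, was unequal. Gins2 was at 84.0 and 86.0 TPM, Gins4 at 62.2 and 61.1 TPM, Gins1 at 33.1 and 33.0 TPM and Gins3 at 14.2 and 14.0 TPM. The order was the same in both libraries and every neighbouring pair was separated, with highest over lowest at 6.01. The place of Gins2 depended on its transcripts: 71.8% of its TPM fell on retained-intron transcripts, and its protein-coding transcript alone was at 17.8 and 20.03 TPM, under Gins4 and Gins1. Its exons also share 2758 bases with Gse1 on the opposite strand. Gins3 was lowest in either case.

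**Figure D2:**
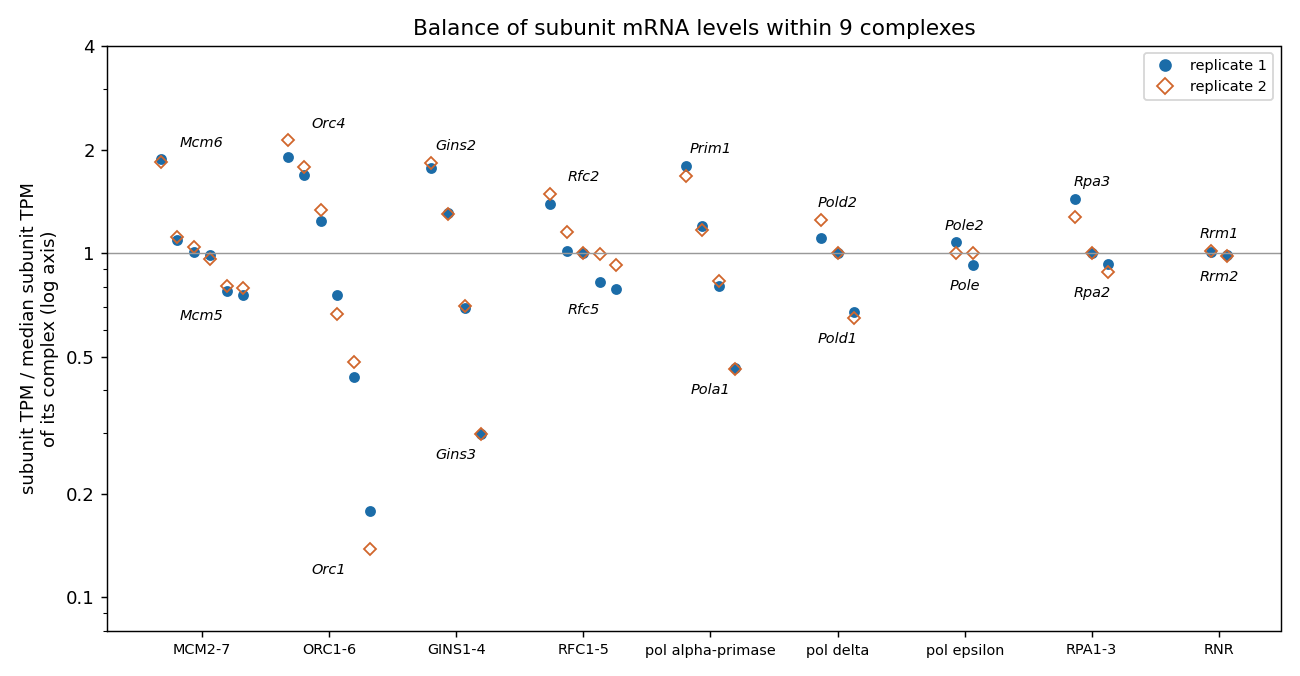
TPM of each subunit divided by the median subunit of its complex in the same library (log axis), for 9 complexes, with replicate 1 as filled circles and replicate 2 as open diamonds. Subunits run from the highest to the lowest mean TPM, and the names are those of the highest and lowest. By the ratio of mean TPM, the origin recognition complex spans the widest range (12.7) and ribonucleotide reductase (RNR) the narrowest (1.03). In replicate 2 alone the polymerase epsilon points coincide (1.0004). Polymerases delta and epsilon are shown by their subunits among the members, without Pold4, Pole3 and Pole4.

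The sliding clamp was more abundant than its loader. Pcna (chr2:132249162-132253314), which encodes the ring that tethers polymerases to DNA, was at 211 TPM in replicate 1 and 206 TPM in replicate 2. Its loader is the RFC complex, in which Rfc2 was highest at 120 and 117 TPM. Rfc4 was at 88.0 and 90.9 TPM, Rfc1 at 86.5 and 78.9 TPM, Rfc3 at 71.5 and 78.3 TPM and Rfc5 at 68.0 and 73.2 TPM. Pcna over the mean of the loader genes was 2.39 ± 0.059 (SD, n = 2). The loader genes lay within 1.68-fold of each other from the mean gene TPM, and Rfc3 and Rfc5 were not separated. Rfc1 was the lowest in place of Rfc5 by expected counts per kilobase of the longest protein-coding transcript, where the range was 2.98, and by protein-coding transcripts, where it was 12.6 and 6 of the 7 Rfc1 transcripts, matched to no annotated type, counted as 0.

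Among the member subunits of polymerases alpha and delta, the catalytic subunit of each had the lowest mRNA level. In polymerase alpha-primase, which lays down the primers, Pola1 (the catalytic subunit, on chromosome X) was lowest at 16.2 and 16.7 TPM. The primase subunit Prim1 was highest at 62.5 and 60.7 TPM, with Pola2 at 41.8 and 42.3 TPM and Prim2 at 28.0 and 30.0 TPM. All 3 steps of that order were separated, and highest over lowest was 3.75. In polymerase delta, which extends the lagging strand, the catalytic Pold1 was the lowest of the members, at 47.7 and 43.6 TPM. Pold3 was at 70.9 and 67.0 TPM and Pold2 at 78.3 and 84.0 TPM. Pold4, a delta subunit that is not a member, was below Pold1, at 19.5 and 16.5 TPM. In polymerase epsilon, which extends the leading strand, the catalytic Pole was at 22.0 and 22.3 TPM and Pole2 at 25.6 and 22.3 TPM, a pair that was not separated. From protein-coding transcripts alone, however, Pole was at 11.5 TPM (mean) and Pole2 at 24.0 TPM, a ratio of 2.09. So Pola1 and Pold1 were the lowest members of their complexes by gene TPM, and by protein-coding transcripts Pole was too.

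Genes of nucleotide supply were all near or above 100 TPM. Rrm1 and Rrm2 encode the large and small subunits of ribonucleotide reductase, which makes the deoxynucleotides. Rrm1 was at 102 and 100.3 TPM and Rrm2 at 100.4 and 96.7 TPM. Rrm1 over Rrm2 was 1.03 ± 0.011 (SD, n = 2), and their libraries overlapped. By mean gene TPM this was the narrowest balance of the 9 complexes. In replicate 2, however, the epsilon pair Pole and Pole2 was narrower (1.0004 against 1.04), with the other epsilon subunits left out. By expected counts not per length Rrm1 was 2.03 times Rrm2. Tyms, the enzyme that makes thymidylate anew, was at 177 and 178 TPM, and Tk1, the salvage kinase for thymidine, at 103 and 112 TPM. Tyms over Tk1 was 1.65 ± 0.091 (SD, n = 2) by gene TPM, but this order turned when transcripts were taken into account. From protein-coding transcripts it was 0.248, with Tyms at 16.2 TPM and Tk1 at 65.7 TPM, and from expected counts per kilobase of the longest protein-coding transcript it was 0.789.

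Genes for finishing and protecting DNA strands were of middle to high level. Lig1, the ligase that seals Okazaki fragments, was at 87.0 and 90.2 TPM. Fen1, the nuclease that removes their flaps, was at 53.3 and 47.5 TPM, and its exons share up to 1909 bases with the antisense gene Gm10143. The single-strand binding protein RPA had Rpa3, its smallest subunit, highest at 120 and 112 TPM, then Rpa1 at 83.4 and 87.9 TPM and Rpa2 at 77.6 and 77.5 TPM. The 3 RPA genes lay within 1.49-fold by gene TPM. By protein-coding transcripts Rpa1 was the lowest, at 45.2 TPM, and the range was 2.54.

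The genes that control entry into S phase spanned the widest range of levels. Cdk4 (chr10:127063534-127067920), a kinase that binds D-type cyclins, was the highest of the 55 at 1335 TPM in replicate 1 and 1303 TPM in replicate 2. Cdk6, its close relative, was at 24.2 and 25.6 TPM. Cdk4 over Cdk6 was 53.1 ± 2.95 (SD, n = 2) by gene TPM. It was 18.3 from protein-coding transcripts, and 21.5 from expected counts per kilobase of the longest protein-coding transcript, so Cdk4 was the higher on each scale. Cdk2, the partner of E-type cyclins, was at 65.1 and 61.1 TPM.

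Of the D-type cyclins, Ccnd3 (chr17:47505051-47599691) was at 322 and 315 TPM and Ccnd2 at 248 and 244 TPM. Ccnd1 (chr7:144929931-144939925) was at 67.4 and 57.3 TPM, below both others in both libraries. Ccnd3 over Ccnd2 was 1.29 ± 0.0063 and Ccnd2 over Ccnd1 was 3.97 ± 0.413 (SD, n = 2). Ccnd1 shares up to 818 exon bases with LTO1 on the opposite strand, Ccnd3 361 bases with Bysl, and Cdk4 641 bases with Tspan31. Whether reads of such pairs were assigned by strand is not known here. Of the E-type cyclins, Ccne1 was at 53.6 and 55.2 TPM and Ccne2 at 41.4 and 38.0 TPM, and Ccne1 was the higher in both libraries. The activating factors E2f1 (chr2:154559407-154569892), at 7.47 and 5.43 TPM, and E2f2, at 3.35 and 2.61 TPM, were among the 3 lowest members, the other being Orc1. E2f1 over E2f2 was 2.16 ± 0.106 (SD, n = 2).

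**Figure D3:**
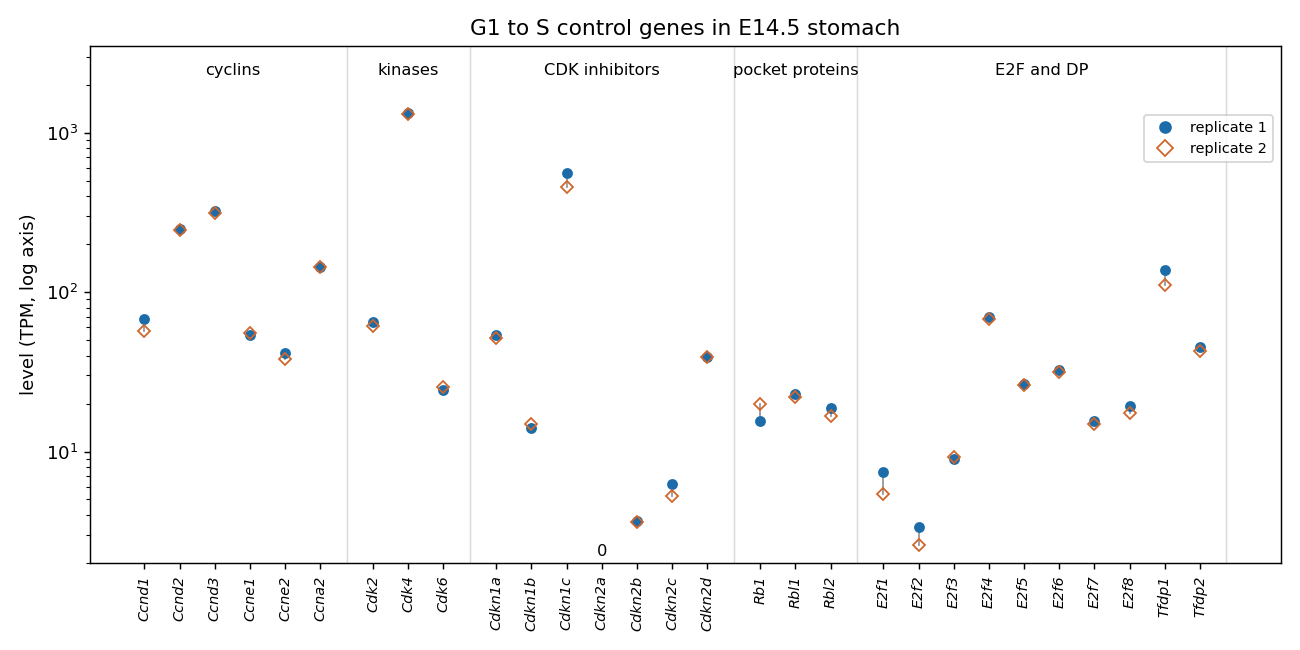
Level in TPM (log axis) of the cyclins, kinases, CDK inhibitors, pocket proteins and E2F and DP genes that act at the G1 to S transition, with replicate 1 as filled circles and replicate 2 as open diamonds. Cdk4 is highest at 1335 and 1303 TPM, Cdkn1c is the highest inhibitor at 560 and 456 TPM, Cdkn2a had 0 counts in both libraries (printed as 0), and E2f1 and E2f2 lie under the other E2F genes.

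Genes that work with the members were taken as 11 further lists of 74 genes. Of the 74, 73 were at TPM 1 or more and 65 at TPM 10 or more in both libraries, and their median was 31.5 and 30.8 TPM. Tfdp1 and Tfdp2, which encode the DP proteins that pair with E2F factors, were at 137 and 111 TPM and at 45.1 and 42.9 TPM. E2f4, an E2F family member that acts mainly with pocket proteins, was at 69.7 and 68.0 TPM. Of the CDK inhibitors, Cdkn1c (p57) was highest at 560 and 456 TPM, then Cdkn1a (p21) at 53.6 and 51.9 TPM and Cdkn2d (p19) at 39.2 and 39.1 TPM. Cdkn2a was the gene not detected, with 0 counts in both libraries. Cyclin A (Ccna2), which takes over from cyclin E in S phase, was at 144 TPM in both, and the origin-firing kinase Cdc7 and its activator Dbf4 at 37.7 and 34.5 TPM (means).

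At the fork, the protection factor Tipin was at 145 and 134 TPM, with Topbp1 and Mcmbp at 57.9 and 57.7 TPM (means). The MCM paralogs Mcm8 and Mcm9, which are not part of the ring, were at 11.5 and 6.39 TPM (means), below each ring gene. The small polymerase subunits Pole4, Pole3 and Pold4 were at 91.6, 57.3 and 18.0 TPM (means). They were left out of the delta and epsilon balances given here. The alternative clamp loader genes were at 82.8 (Chtf8), 20.99 (Dscc1), 15.3 (Rad17), 12.5 (Chtf18) and 11.8 TPM (Atad5), so 4 of the 5 lay below every RFC gene.

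In nucleotide supply, thymidylate kinase (Dtymk), which acts after Tyms and Tk1, was at 206 TPM in both libraries, with the dUTPase Dut at 108 and Shmt1 at 49.0 TPM (means). Of the lagging strand list, the PCNA-binding factor Pclaf was at 133 TPM, the RNase H2 subunits Rnaseh2a, Rnaseh2c and Rnaseh2b at 88.8, 83.2 and 48.1 TPM, Lig3 at 29.1 TPM and Dna2 at 11.8 TPM (means). Lig1, the member of that step, was above Lig3 in both libraries. Of chromatin factors, the histone mRNA binding protein Slbp was at 174, the histone chaperone Nasp at 116 and Uhrf1 at 61.1 TPM (means). The ligase that removes Cdt1 after licensing had its adaptor Ddb1 at 204, the scaffolds Cul4a and Cul4b at 74.5 and 28.4 and the receptor Dtl at 46.5 TPM. The receptors Skp2 and Fbxw7, of another ligase, were at 54.1 and 12.9 TPM (means).

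The 2 libraries were close for nearly all members. Ratios of replicate 2 over replicate 1 were taken from expected counts after TMM scaling. Replicate 1 was more than 25% above replicate 2 in 1 of the 55 members (E2f1), against 4.14% of the 12761 genes whose mean count was at least 100. Replicate 2 was more than 25% above replicate 1 in 0 of the 55, against 3.28% of genes, and 0 were over 2-fold apart, against 0.298%. These are counts of ratios with 1 library on each side and no test. The median log2 ratio was 0.03 for the members and -0.01 for all those genes, and the members' ratios ran from -0.40 (E2f1) to 0.20 (Rfc3). The median absolute log2 ratio was 0.049 for the members and 0.095 for all those genes. Within the range of 1000 to 10000 mean counts, which holds 44 members and 5558 genes, these medians were 0.047 and 0.072. In that range 0 of the 44 members and 1.24% of the genes were more than 25% apart in either direction.

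E2f1 had 332 expected counts in the library of replicate 1 and 256 in that of replicate 2. Its ratio was 0.760, with a 95% counting interval of 0.643 to 0.897. E2f2, Orc1, Ccnd1 and Orc5 were next lowest, at 0.816, 0.830, 0.860 and 0.862. Counting intervals lay wholly below 1 in 7 members, these 5 with Mcm4 and Fen1, against 19% of the 12761 genes given a ratio. They lay wholly above 1 in 11 members (Gins2, Rfc3, Pola1, Prim2, Tk1, Rpa1, Ccnd2, Ccnd3, Ccne1, Cdk4 and Cdk6), against 15.9% of these genes. The highest of these were Rfc3 at 1.15 (1.07 to 1.23) and Gins2 at 1.14 (1.07 to 1.22). Intervals cover counting error only, whereas the spread between the embryos also holds the library step. Replicate 2 is also the library with the low pancreas markers given above, whose part in these ratios was not tested. With spike-in counts as library sizes every log2 ratio fell by 0.27, in members and other genes alike. The median was then -0.24 for the members and -0.27 for the 12761 genes. All 55 members were below 0, and in 8 replicate 1 was more than 25% above replicate 2. With the deposited TPM, replicate 1 was more than 25% above replicate 2 in 3 members (Orc1, E2f1 and E2f2). The share of all genes past 25% was not counted in either setting.

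**Figure D4:**
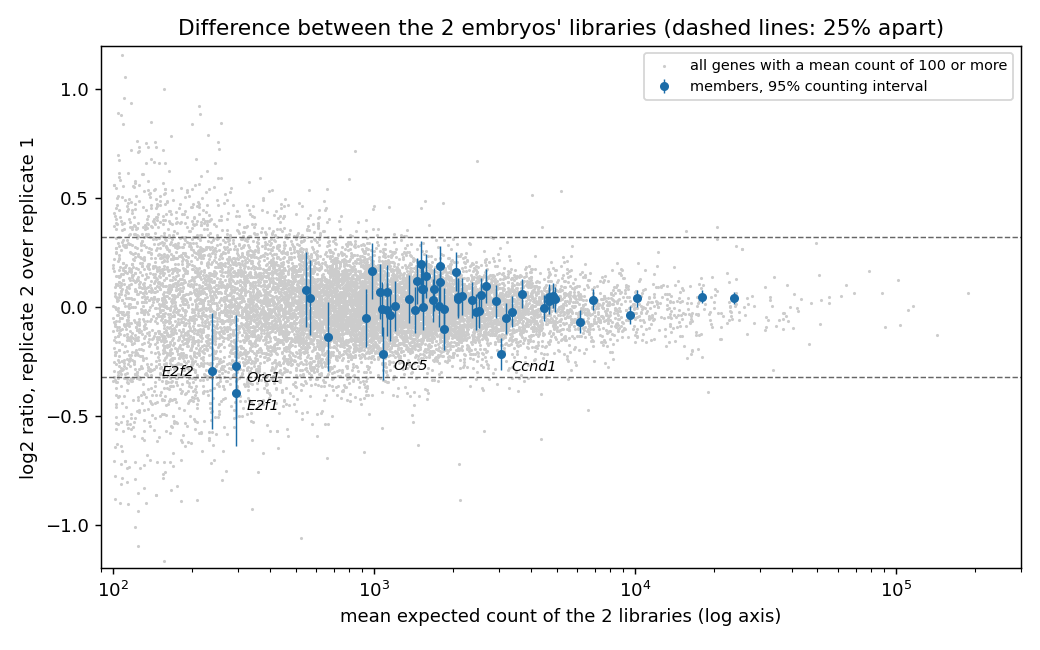
Log2 ratio of replicate 2 over replicate 1 against the mean expected count (log axis), for the 12761 genes of mean count at least 100 (grey) and the 55 members (blue, bars: 95% counting interval). Dashed lines mark where either library is 25% above the other, and E2f1 is the 1 member beyond them. Outside the plotted axes lie 31 genes by ratio and 1 by count, none of them members.

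Gene TPM sums over transcripts, and the kinds of transcript differed between members. By annotation, the median member had 94.3% of its TPM on protein-coding transcripts, 33 members had 90% or more, and 6 had under 50% (Tyms, Rfc1, Gins2, Orc4, Cdk4 and Pold1). Pold1 was at 49.8% with another 10.9% on transcripts matched to no annotated type, and Pold3 at 52.8% with another 24.2%. Their protein-coding shares are thus lower limits. Transcripts of short annotated length raise TPM, because the same reads are divided by fewer bases. Of the 55 genes, 10 had 1 annotated transcript, and of the other 45 all but Pole had the same leading transcript in both libraries. The 10 are protein coding by annotation, so their share of 100% was fixed in advance. They are counted in the 33 and in the median above. In Pole, the leading transcript was protein coding in replicate 1, with 40.6% of gene TPM, and retained intron in replicate 2, with 47.8%.

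In 49 members the leading transcript was protein coding. In Cdk4, it was a retained-intron transcript of 468 bases, with 41.3% and 40.2% of the gene's TPM, from 3429 and 3458 of its 17670 and 18550 expected counts. The Cdk4 protein-coding transcripts summed to 447 TPM in replicate 1, which was still the highest among members on that scale. In Tyms the leading transcript was of the nonsense-mediated decay class (44.3% in both libraries). In Gins2 it was a retained-intron transcript of 511 bases (70.5% and 70.3%), and in Orc4 a processed transcript (23.8% and 21.4%). In Rfc1 it was 1 of 6 transcripts, with 88.7% of the gene's TPM together, that had no match in the later annotation used for transcript types, so the protein-coding share of Rfc1 (11.3%) is a lower limit.

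Rpa1 had 52.5% and 51.6% of its TPM on its leading protein-coding transcript and 45.3% and 46.9% on a retained-intron transcript of 716 bases. Ccnd1 had 76.3% and 73.5% on its protein-coding and 23.7% and 26.5% on a retained-intron transcript of 470 bases. Ccnd2 had 1 transcript, Ccnd3 had 21 with 93.7% and 94.2% of TPM on 1 of them, and Ccne1 had 98.6% and 99.3% and Gmnn 95.3% and 91.7% on 1 protein-coding transcript. So the levels of Ccnd3, Ccne1 and Gmnn rested nearly wholly on transcripts annotated as protein coding. For Ccnd2 the share of 100% is fixed by its annotation and shows nothing about its reads.

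**Figure D5:**
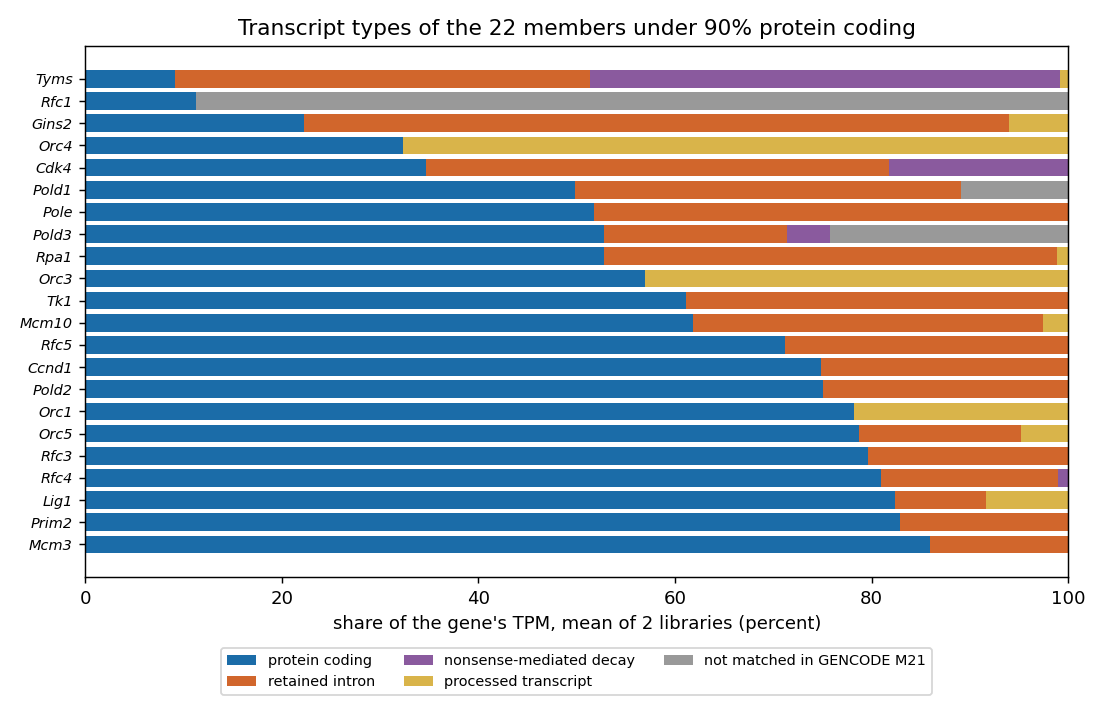
Share of gene TPM (percent, mean of the 2 libraries) by annotated transcript type, for the 22 members with under 90% on protein-coding transcripts, ordered by that share. Tyms has the smallest protein-coding share (9.16%), and grey marks transcripts without a match in GENCODE M21.

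Cdk2 was expressed as 2 protein-coding forms that differ by an exon within the coding sequence. The shorter had 71.9% of Cdk2 TPM in replicate 1 and 66.1% in replicate 2, and the longer 28.1% and 33.9%. The shorter was thus the leading form in both embryos. The added exon is exon 6 of 8 in the longer transcript, at chr10:128699976-128700119 (minus strand, mm10), and its 144 bases make 48 codons with none left over, so the reading frame is kept. It is shown, 5′ to 3′ on the gene's strand, because the share of Cdk2 mRNA that holds it is the measured split between the forms.
Cdk2 exon 6: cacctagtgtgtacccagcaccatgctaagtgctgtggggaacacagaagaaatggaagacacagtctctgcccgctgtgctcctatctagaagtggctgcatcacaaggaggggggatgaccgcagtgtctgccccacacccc
The expected counts of the shorter form were 1728 and 1581, and those of the longer 720 and 865, so the total for Cdk2 (2448 and 2446) differed little while the split moved by several percentage points.

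Of the 55 members, 21 have exons that overlap an exon of another gene in the tables, and in 19 that gene was at TPM 1 or more in both libraries. Whether counting used strand is not given in the sources used here, so the levels of these members are less certain than the others. Examples are Mcm7, which shares up to 247 exon bases with Ap4m1 (17.0 and 17.0 TPM), Orc6, which shares 171 with Vps35 (109 and 104 TPM), and Rfc4, which shares 186 with Eif4a2 (216 and 198 TPM). Across the 9 complexes, 8 kept the same order of subunits in both libraries, polymerase epsilon being the exception. Of 26 neighbouring pairs in these orders, 22 were separated by their libraries and 15 also by the deposited intervals in both libraries.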

How the data were processed

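Total RNA-seq of 2 embryonic stomachs was analysed from the gene and transcript tables the authors deposited. Per the deposited notes, reads were assigned to GENCODE M4 genes on build mm10. No aligner or counting program is named in the sources used here. The deposited expected counts estimate how many reads came from each gene, without normalization and some of them fractional, and the deposited TPM values are scaled by length to a fixed total that includes spike-ins. Deposited percent values state how much of a gene's TPM each transcript holds. The deposited interval bounds surround a posterior mean TPM, at a level the files do not state. The depth was 25072242 and 25599910 expected counts. In all, 97 spike-in and control sequences and 26248 numbered entries, which name no gene (15.47 and 25 counts), stayed out of library sizes and ratios.

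Symbols and transcript types came from GENCODE M21 on the same assembly, matched for 42462 of 43346 genes. Promoters came from RefSeq (GRCm38.p6). Protein features of the members were not analysed here. Library ratios used expected counts with TMM sizes (edgeR 4.0.16, R 4.3.3), 0.5 added, and a mean count of 100 or more. DESeq2 1.42.0 size factors were an alternative. The ratio calculation was tested on simulated data. Counting intervals are at 95%. With 1 library a side there is no p-value, and the spread between the 2 libraries holds embryo and technical differences alike.

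All 55 members are named. Of the 11 other lists, the 3 genes with the highest mean TPM, every gene of lists of 6 or fewer and any over 25% apart between libraries (none was) are named. The transcript accounts cover members whose leading transcript is not protein coding or differs between libraries, and 8 set genes (Cdk2, Ccnd1, Ccnd2, Ccnd3, Ccne1, Cdk4, Rpa1 and Gmnn). No measured value entered the rule for members, but the members and lists were proposed with earlier results of these data known.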

Additional observations from a re-analysis of the deposited data

How the results depend on the processing

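All 55 members were detected under each threshold tried except TPM 5, which left 54 (without E2f2). The ratios below have no test, and 1 group of 2 libraries limits every statement to these embryos; the lowest members rest on 217 to 332 counts. No paired analysis was possible because there is 1 group. With 1 library left out, the median level of members was 70.9 to 73.2 TPM, beside 70.6 from the means of both. With 2 libraries, leaving out either is no check of stability, because it gives back the value of the other. Without spike-ins in the total the median was 81.4 TPM.

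By expected counts not per length, highest over lowest subunit was 2.14 for MCM, 8.08 for ORC, 3.25 for GINS, 2.12 for RFC. It was 1.74 for polymerase alpha-primase, 1.36 for delta, 2.16 for epsilon, 2.34 for RPA and 2.03 for ribonucleotide reductase. Only ribonucleotide reductase kept both its highest and its lowest subunit on this scale. In RPA the order turned, with Rpa1 highest and Rpa3 lowest, and in epsilon Pole lay above Pole2. Orc3, Rfc1, Pola2 and Pold3 became the highest of their complexes, and Mcm7, Gins1, Rfc3 and Prim2 the lowest. Protein-coding transcripts were also taken alone, with unmatched transcripts of Rfc1, Pold1 and Pold3 counted as 0. Highest over lowest was then 4.36 for GINS, 12.6 for RFC and 3.53 for alpha-primase. It was 2.67 for delta, 2.09 for epsilon, 2.54 for RPA and 1.08 for ribonucleotide reductase. Pairs were then 18.3 (Cdk4 over Cdk6), 5.32 (Ccnd2 over Ccnd1), 1.27 (Ccnd3 over Ccnd2), 1.08 (Rrm1 over Rrm2), 0.478 (Pole over Pole2), 3.08 (Pcna over the RFC mean) and, turned in direction, 0.248 (Tyms over Tk1). Counts per kilobase of the longest protein-coding transcript were an alternative chosen after seeing the data. By these, the complexes gave 1.61 (MCM), 10.7 (ORC), 4.36 (GINS), 2.98 (RFC), 4.06 (alpha-primase), 2.50 (delta), 2.05 (epsilon), 3.72 (RPA) and 1.09 (ribonucleotide reductase). The pairs gave 0.380 (Cdt1 over Gmnn), 21.5 (Cdk4 over Cdk6), 5.14 (Ccnd2 over Ccnd1), 1.18 (Ccnd3 over Ccnd2), 1.09 (Rrm1 over Rrm2), 0.489 (Pole over Pole2), 2.78 (Pcna over the RFC mean) and, turned, 0.789 (Tyms over Tk1). By posterior mean TPM, Ccnd3 over Ccnd2 was 1.31 and E2f1 over E2f2 was 1.91. These scales differ in whether length is divided out, in which length, and in which transcripts are kept. The longest protein-coding transcript was not always the leading one. For Mcm6 it had 4355 bases and 4.05% of the gene's TPM, and the leading form had 2910 bases (means). For Rpa1 it had 5077 bases and 0.76%, and the leading form had 2942 bases. Dividing all counts by the longest length thus lowers such genes. The cause of each shift was not tested.

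Members with replicate 1 more than 25% above replicate 2 numbered 8 with spike-in sizes (median log2 ratio -0.24), 3 with deposited TPM, 0 at a threshold of 1.5-fold and 1 in the other settings tried. In no setting was a member more than 25% higher in replicate 2.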
